A study of Mus musculus with 51 samples.

Results

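Promoters that carried H3K4me2/3 but no H3K4me3 in mouse meiotic prophase are described here. The 5 H3K4me2/3 peak lists, 1 for each stage, were merged into 43759 sites, and 17846 of these overlapped the 500 bp on either side of an annotated transcript 5′ end (a transcription start site, TSS). Of these TSS sites, 5543 met no peak in any of the 10 H3K4me3 lists and are called sites without H3K4me3. They were 31.1% of the TSS sites and 12.7% of all merged H3K4me2/3 sites. The other 12303 TSS sites overlapped at least 1 H3K4me3 peak and are called H3K4me3-marked sites. The sites were thus chosen by presence in an H3K4me2/3 list and absence from every H3K4me3 list, so both are given below as descriptions with no test. Absence from a list means that no peak was called there, and H3K4me3 below the limit of the peak caller was not tested.

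All samples were nuclei of wild-type C57Bl/6J adult male mice, with no transgene and no treatment, taken from whole testis, fixed with formaldehyde and sorted by flow cytometry on DNA content and on the meiotic proteins SCP3, STRA8, H1t and SCP1. The sort gave 5 successive stages in which chromosomes condense, pair, recombine and separate, namely leptonema, zygonema, early and late pachynema, and diplonema. The paper found nuclei of other stages in the sorted populations and names zygonema as the least pure. A call in 1 list may therefore come in part from nuclei of another stage. Leptonema was sorted with STRA8 in a sort of its own and the other 4 stages were sorted together, so a difference between leptonema and the rest cannot be told apart from a difference between the sorts. H3K4me3 was precipitated with an EpiCypher antibody in 2 experiments, H3K4me2/3 with Abcam ab8580 in experiment 2 only, and H3K9ac with an Active Motif antibody in experiment 1 only. Each H3K4me2/3 and H3K9ac list therefore stands for 1 library, with no replicate, and the depth behind the lists is unknown because they hold positions without read counts. The H3K4me3 lists held 4883 to 15699 peaks, and each was shorter than any H3K4me2/3 list (17561 to 30943 peaks). Whether sites without H3K4me3 held H3K4me3 that the EpiCypher libraries missed was not tested.

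Methyl groups are added to lysine 4 of histone H3 by SET-domain enzymes of the MLL and SET1 complexes, and in meiosis also by PRDM9 at recombination hotspots. The trimethylated form is concentrated at the TSSs of active and CpG-rich genes, where unmethylated CpG dinucleotides recruit the CXXC-domain subunits of these complexes. The dimethylated form spreads over the flanks of active promoters and is also found at enhancers and at promoters that are poised or weakly used. The Abcam antibody binds both forms, which is why the study calls its signal H3K4me2/3. Acetylation of lysine 9 (H3K9ac) is a mark of active promoters, and its lists are the one histone mark here that took no part in choosing the sites.

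To show the CpG content that several results below turn on, the promoters of 6 sites are given, 250 bases before to 50 bases after the RefSeq start (RefSeq, GRCm38.p6, the assembly also called mm10), with every CG in capitals. The first 4 belong to the sites that had a wide H3K4me2/3 peak at all 5 stages and are those with the fewest and the most CG. The last 2 belong to spermatid genes whose site was called in late pachynema only, and were added after their values had been seen. Snrpn, an imprinted gene for a splicing protein, lies at chr7:60005150-60005449 on the minus strand. Nfatc4, a transcription factor activated by calcineurin, lies at chr14:55824545-55824844 on the plus strand. Pcdh10, a protocadherin, lies at chr3:45378148-45378447 on the plus strand. Txnrd1, the cytosolic thioredoxin reductase, lies at chr10:82858956-82859255 on the plus strand. Tnp2, a transition protein that replaces histones in spermatids, lies at chr16:10788606-10788905 on the minus strand. Spaca4, a sperm acrosome membrane protein, lies at chr7:45725767-45726066 on the minus strand.
Snrpn: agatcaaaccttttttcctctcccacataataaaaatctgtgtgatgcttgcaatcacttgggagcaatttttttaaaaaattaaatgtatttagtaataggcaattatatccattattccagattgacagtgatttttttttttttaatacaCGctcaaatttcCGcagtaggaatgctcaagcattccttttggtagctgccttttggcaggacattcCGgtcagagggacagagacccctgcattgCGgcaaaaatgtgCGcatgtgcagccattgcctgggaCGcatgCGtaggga
Nfatc4: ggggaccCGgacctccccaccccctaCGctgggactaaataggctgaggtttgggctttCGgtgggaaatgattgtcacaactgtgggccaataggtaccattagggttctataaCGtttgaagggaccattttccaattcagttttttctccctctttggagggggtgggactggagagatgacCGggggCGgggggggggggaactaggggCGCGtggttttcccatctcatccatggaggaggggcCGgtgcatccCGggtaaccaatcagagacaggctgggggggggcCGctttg
Pcdh10: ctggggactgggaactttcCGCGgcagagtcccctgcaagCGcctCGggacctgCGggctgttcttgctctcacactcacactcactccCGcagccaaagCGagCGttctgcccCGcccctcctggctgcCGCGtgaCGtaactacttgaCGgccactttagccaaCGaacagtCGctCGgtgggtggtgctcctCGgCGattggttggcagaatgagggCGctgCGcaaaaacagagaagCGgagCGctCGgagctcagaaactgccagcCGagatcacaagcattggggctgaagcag
Txnrd1: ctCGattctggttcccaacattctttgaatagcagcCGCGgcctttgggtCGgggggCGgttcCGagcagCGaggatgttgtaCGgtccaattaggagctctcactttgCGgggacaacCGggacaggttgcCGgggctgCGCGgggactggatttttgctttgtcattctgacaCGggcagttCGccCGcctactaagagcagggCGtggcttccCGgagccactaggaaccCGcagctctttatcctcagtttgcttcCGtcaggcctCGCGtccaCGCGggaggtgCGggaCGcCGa
Tnp2: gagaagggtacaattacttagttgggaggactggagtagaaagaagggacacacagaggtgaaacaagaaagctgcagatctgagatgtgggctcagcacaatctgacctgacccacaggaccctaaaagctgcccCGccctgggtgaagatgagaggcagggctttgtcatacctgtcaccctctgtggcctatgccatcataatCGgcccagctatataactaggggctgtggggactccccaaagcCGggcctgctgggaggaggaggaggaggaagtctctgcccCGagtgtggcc
Spaca4: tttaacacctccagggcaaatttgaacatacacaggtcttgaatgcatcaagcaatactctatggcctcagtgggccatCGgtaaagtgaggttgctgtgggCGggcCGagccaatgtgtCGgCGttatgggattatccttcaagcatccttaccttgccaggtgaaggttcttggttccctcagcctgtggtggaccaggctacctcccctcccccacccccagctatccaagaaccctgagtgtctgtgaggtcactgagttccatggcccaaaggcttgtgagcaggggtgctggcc
The Txnrd1 and Pcdh10 promoters held 27 and 24 CG, the Nfatc4 promoter 11 and the Snrpn promoter 7. These counts do not rank the sites as the ratio of observed to expected CG used below does. That ratio, taken over a wider stretch, was 0.59 at the Snrpn site and 0.42 at the Nfatc4 site. The 2 spermatid promoters held fewer, 4 for Tnp2 and 5 for Spaca4, although their GC contents of 56.0% and 55.0% were close to the 58.7% of Nfatc4.

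Sites without H3K4me3 were mainly called early in prophase. Of the 5543, 4322 had an H3K4me2/3 peak in leptonema (78.0%) and 2724 had one in zygonema (49.1%). The early pachynema list met 1574 of them (28.4%), the late pachynema list 1803 (32.5%) and the diplonema list 1304 (23.5%). The share was lower at each step from leptonema to early pachynema, higher again in late pachynema and was lowest in diplonema. The H3K4me3-marked sites lay between 85.2% and 94.4% at every stage. Among the TSS sites called in leptonema 27.1% had no H3K4me3 peak, against 10.8% of those called in diplonema. The lists themselves held 30943 peaks for leptonema and 29114 for zygonema, but 17561 and 19711 for early and late pachynema and 18191 for diplonema. Part of the order of the stages thus moves with the length of the lists. When only the 17561 widest peaks of each list were kept, 3718 sites without H3K4me3 were found, of which 2028 were called in leptonema and 1005 in zygonema, 1571 and 1422 in early and late pachynema, and 1215 in diplonema. Leptonema was still the most frequent stage, and zygonema became the least frequent.

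Single-stage calls were common. Of the sites without H3K4me3, 2310 were called at 1 stage only (41.7%), 1582 at 2 stages, 781 at 3, 440 at 4 and 430 at all 5 (7.76%). Of the H3K4me3-marked sites 2.72% were called at 1 stage and 76.6% at all 5. The most frequent pattern was leptonema alone, with 1481 sites, followed by leptonema and zygonema with 1053, leptonema to early pachynema with 475 and all 5 stages with 430. Late pachynema alone had 399 sites and late pachynema with diplonema 246. Zygonema alone had 188, diplonema alone 152 and early pachynema alone 90. The count for leptonema alone was 752 with lists of equal length, and 2533 when the zygonema list was left out, because sites of the leptonema and zygonema pattern then counted as leptonema alone. The order of the other single-stage patterns also turned with the lists. With equal lengths early pachynema alone had 358 sites, late pachynema alone 336, diplonema alone 205 and zygonema alone 102. Zygonema alone had 1262 sites without the leptonema list, and diplonema alone 398 without the late pachynema list.

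**Figure D1:**
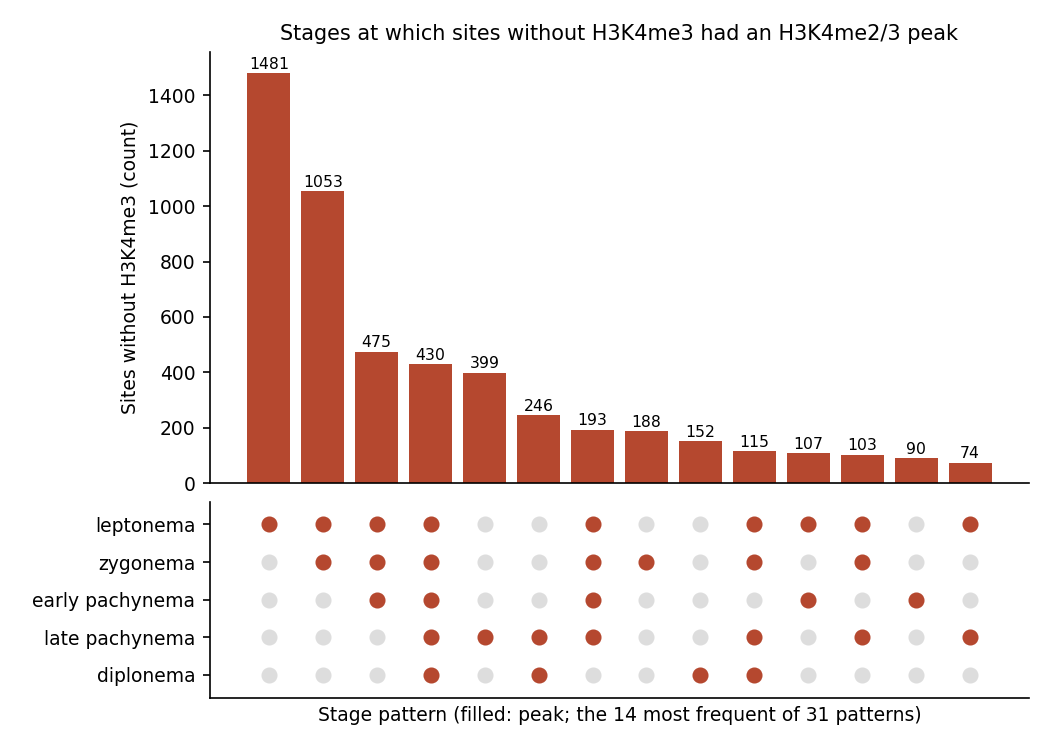
Number of sites without H3K4me3 (vertical axis, count) for the 14 most frequent of 31 combinations of stages, shown by filled circles under each bar. Leptonema alone (1481) and leptonema with zygonema (1053) were the tallest bars, and the first bars without an early stage were late pachynema alone (399) and late pachynema with diplonema (246).

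For the comparisons that follow, the sites were put into 3 classes. Early sites had a peak in leptonema or zygonema and none in late pachynema or diplonema (3322 sites, 59.9%). Late sites had a peak in late pachynema or diplonema and none in leptonema or zygonema (876 sites, 15.8%). Sites of both phases had peaks on each side (1255 sites, 22.6%). The remaining 90 were called in early pachynema alone. With lists of equal length there were 1119 late sites among 3718 sites without H3K4me3, and without the late pachynema list 460 among 5143.

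The peaks were narrow. The median width of the merged sites without H3K4me3 was 778 bp, with a range of 179 to 1931 bp between the 5th and the 95th percentile, and the widest was 4367 bp. The H3K4me3-marked sites had a median of 2127 bp. Within single lists, the median peak at a site without H3K4me3 was 728 bp wide in leptonema and 553 bp in zygonema, 471.5 and 558 bp in early and late pachynema, and 607 bp in diplonema. The corresponding medians of the H3K4me3-marked sites were 1443.5, 1307, 1208, 1710.5 and 1812 bp. The upper quartile of the sites without H3K4me3 lay at or below the lower quartile of the marked sites at each stage. The median width was larger at TSS sites that met more H3K4me3 lists, though not at every step (2070.5 bp with 3 lists and 1931 bp with 4), and went from 778 bp with none to 1292 bp with 1 list, 2001.5 bp with 5 lists and 2854 bp with all 10.

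**Figure D2:**
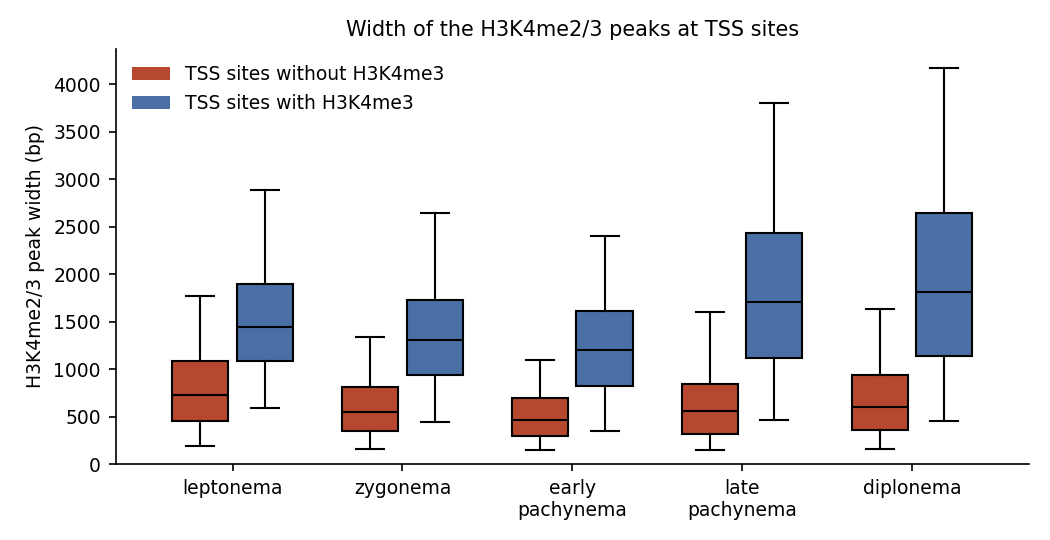
Width in bp of the H3K4me2/3 peaks (vertical axis) at TSS sites without H3K4me3 and at H3K4me3-marked sites, for the 5 stages. Boxes span the quartiles, lines mark medians and whiskers the 5th and 95th percentiles. The medians without H3K4me3 lay between 471.5 and 728 bp and those with H3K4me3 between 1208 and 1812 bp.

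At the edge of the rule, the sites without H3K4me3 that lay nearest to an H3K4me3 peak were at Rnu5g (2 bp away), Stambpl1 (4 bp), Cyp26b1 and Nell1 (5 bp each) and Cacng3 (14 bp). The TSS sites that only just met an H3K4me3 peak were at H2-DMa (an overlap of 1 bp), 1700065J11Rik (7 bp), Gm47250 (16 bp), Tril (21 bp) and Efcc1 (23 bp). Such cases were few. An H3K4me3 peak lay within 1000 bp of 133 of the 5543 sites (2.40%), and the median distance to the nearest one was 21593 bp. A further 1965 TSS sites met H3K4me3 in 1 of the 10 lists only, 907 of them only in leptonema of experiment 2 and 651 only in diplonema of experiment 2. With the H3K4me3 lists of experiment 2 alone 5882 TSS sites had no H3K4me3 peak, and with those of experiment 1 alone 8243.

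Protein-coding genes were the main class. A site was given to a protein-coding gene if any lay there, and otherwise to a long noncoding RNA, a pseudogene, a small RNA or another type, in that order. By this order 3761 sites without H3K4me3 were at protein-coding genes (67.9%, exact binomial 95% interval 66.6 to 69.1), 868 at long noncoding RNA genes (15.7%), 715 at pseudogenes (12.9%), 124 at small RNA genes (2.24%) and 75 at other types. The H3K4me3-marked sites were at protein-coding genes in 90.2%, at long noncoding RNA genes in 5.59% and at pseudogenes in 2.87%. Such intervals cover counting error only, and neighbouring sites are not independent. Of all 20807 autosomal protein-coding genes in the annotation, 3419 had a site without H3K4me3 at a TSS (16.4%), and of all 51229 autosomal genes 5588 had one (10.9%). The share was 12.3% of lincRNA genes, 11.8% of antisense RNA genes, 15.1% of processed transcripts and 7.45% of processed pseudogenes. The sequences of processed pseudogenes resemble their parent genes, and whether reads were assigned to the wrong copy was not tested. Among gene types with more than 1000 genes, processed pseudogenes were the one in which more genes met a site without H3K4me3 (665 of 8924) than an H3K4me3-marked site (307).

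The sites lay less squarely on TSSs than the H3K4me3-marked sites did. The annotated 5′ end itself was covered by 73.5% of the sites without H3K4me3 and by 96.3% of the marked sites, and the others lay within the 500 bp around it. Their centre lay downstream of the nearest 5′ end in 64.7% and 66.3%, respectively. The 5′ end of a protein-coding transcript was within reach of 56.8% of the sites without H3K4me3. Most sites without H3K4me3 (4144, 74.8%) were at the most upstream 5′ end of a gene, as were 65.5% of those at protein-coding genes. Some were secondary starts of genes that also had H3K4me3 at a TSS. Of the 3761 sites at protein-coding genes, 950 (25.3%) belonged to a gene with an H3K4me3 peak at any of its TSSs. The TSS of the site itself was not excluded. It could be the marked TSS only where an H3K4me3 peak lay within 1000 bp, as at 133 of all 5543 sites. Only 28.1% of these 950 were at the most upstream 5′ end of the gene, against 78.2% of the 2811 sites whose gene had H3K4me3 at none. Late sites made up 22.0% of the former and 9.75% of the latter. Counted by genes, 2606 of the 3419 protein-coding genes with such a site (76.2%) had no H3K4me3 at any TSS.

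CpG content was lower than at H3K4me3-marked sites. It was measured as the observed number of CG divided by the number expected from the C and G content, over the 500 bp on either side of the nearest 5′ end. The median ratio was 0.44 at sites without H3K4me3 (quartiles 0.33 and 0.56) and 0.73 at H3K4me3-marked sites (0.58 and 0.85). It was 0.53 over all 52099 protein-coding transcript 5′ ends, with quartiles of 0.23 and 0.77. A ratio of at least 0.6, a usual limit for CpG islands, was met by 19.6% of the sites without H3K4me3 and by 72.7% of the marked sites. At the other end, 19.3% and 7.28% lay under 0.3. Of all protein-coding 5′ ends 44.7% reached 0.6 and 33.5% lay under 0.3. The ratio was higher the more H3K4me3 lists were met, from 0.44 with none to 0.55 with 1, 0.71 with 5 and 0.84 with 10. For protein-coding genes alone the medians were 0.47 and 0.75.

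Late sites were CpG-poor whether or not they had H3K4me3. The median ratio of the 876 late sites without H3K4me3 was 0.24, against 0.46 for early sites and 0.51 for sites of both phases. Of the late sites 68.8% (65.7 to 71.9) lay under 0.3, and of the early sites 11.0% (9.91 to 12.1). The 441 late H3K4me3-marked sites also had a median of 0.25, with 68.3% under 0.3. The low CpG content of late sites was therefore shared by both kinds. In the class of both phases the kinds were far apart, with a median of 0.51 without H3K4me3 and 0.76 with it. Among early sites the medians were close (0.46 and 0.42), but the marked sites were spread more widely, with 33.7% under 0.3 against 11.0%.

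**Figure D3:**
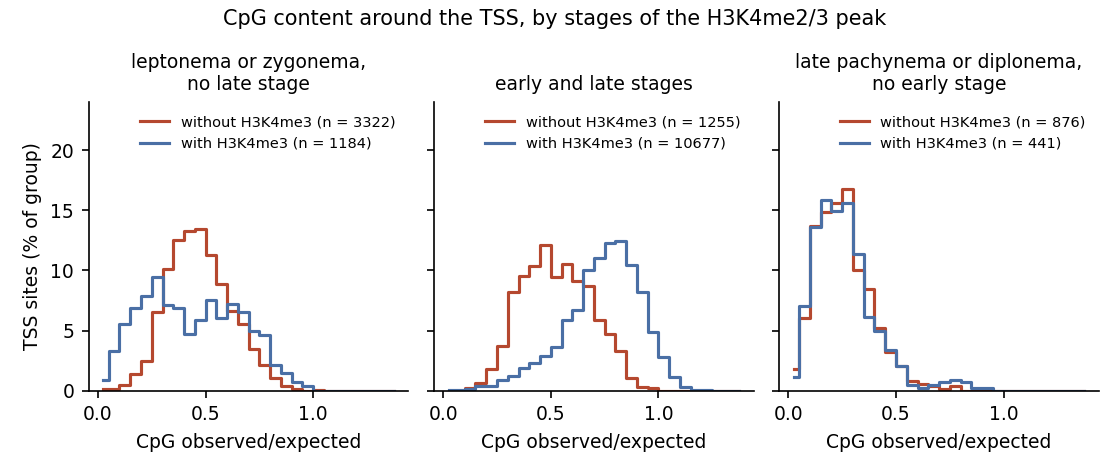
Distribution of the CpG observed/expected ratio (horizontal axis) around the TSS, as a percentage of each group (vertical axis), for early sites, sites of both phases and late sites. The late sites with and without H3K4me3 lay on each other, with medians of 0.25 and 0.24, whereas in the middle panel the medians were 0.76 and 0.51.

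Short promoter motifs were counted on both strands in the RefSeq promoters of 300 bases shown above for 6 genes. Of 31365 promoters on chromosomes 1 to 19, 2194 had their start inside a site without H3K4me3, and they matched 1898 of the 5543 sites. The GC box GGGCGG was present in 55.7% of these, in 68.0% of promoters at H3K4me3-marked sites and in 35.95% of all promoters. It was present in 60.9% of the promoters at early sites and in 16.8% of the 202 at late sites. The TATA box TATAAA was present in 8.48% of the promoters at sites without H3K4me3, in 12.9% of those at late sites, in 5.85% at marked sites and in 13.6% of all promoters. CCAAT was present in 35.6%, 40.6%, 36.5% and 37.3% of the same groups. The cAMP response element TGACGTCA was in 1.87% and the E-box CACGTG in 7.61% of the promoters at sites without H3K4me3, against 1.83% and 7.14% of all promoters. No motif contains another, and a match describes the letters only.

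H3K9ac was rare at these sites. In the zygonema H3K9ac list a peak overlapped 391 of the 5543 sites without H3K4me3 (7.05%, 95% interval 6.39 to 7.76). In early pachynema there were 100 (1.80%) and in leptonema 2 (0.036%). In late pachynema and in diplonema there were none, which allows a share of up to 0.0541% in each by 3 counts and of up to 0.0665% by the exact interval. The H3K4me3-marked sites had an H3K9ac peak in 66.8% in zygonema, 55.3% in early pachynema, 21.9% in leptonema, 13.1% in late pachynema and 3.48% in diplonema. Over all 17846 TSS sites the shares were 48.3% in zygonema, 38.7% in early pachynema, 15.1% in leptonema, 9.03% in late pachynema and 2.4% in diplonema. In any list, 454 sites without H3K4me3 (8.19%) had a peak, against 71.5% of marked sites and 51.8% of all TSS sites. Of the 454, 352 had it in zygonema only, 61 in early pachynema only, 39 in both and 2 in leptonema. The lists held 16003 peaks in zygonema, 7744 in early pachynema, 2823 in leptonema, 1727 in late pachynema and 516 in diplonema, and the order of the shares followed the lengths of the lists.

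The share was lower at sites without H3K4me3 in all 5 H3K9ac lists. The mean difference was -30.3 percentage points (SD 24.96, n = 5 lists). The two-sided exact sign-flip permutation test over the lists gave p = 0.0625, the smallest p that 5 lists allow, so the design could not reach 0.05. The 5 lists were of different stages and are not replicates of 1 condition. No source says whether the libraries came from separate animals, and the p measures only the spread between lists. Without the zygonema list the mean difference was -23.0 percentage points, and 1.84% of the sites had H3K9ac in any of the other lists. H3K4me2/3 sites away from TSSs and without H3K4me3, 16349 in number, had H3K9ac in 5.83% in zygonema and in 1.07% in early pachynema, beside the 7.05% and 1.80% at TSSs.

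The share with H3K9ac was larger at sites with a broader H3K4me2/3 call, and in each class it was lower than at marked sites of the same class. In zygonema, H3K9ac met 2.16% of the sites without H3K4me3 called at 1 stage, 4.87% at 2 stages, 9.73% at 3, 14.1% at 4 and 29.3% at all 5. The H3K4me3-marked sites gave 34.3%, 35.5%, 17.5%, 22.1% and 79.1% in the same order. By width, the share was 1.67% for sites under 500 bp, 6.49% from 500 to under 1000 bp, 10.3% from 1000 to under 1500 bp, 13.96% from 1500 to under 2000 bp and 14.2% from 2000 bp. At marked sites of the same widths it was 20.0%, 30.7%, 49.3%, 68.9% and 76.3%. Where the zygonema H3K4me2/3 list also had a peak, 13.0% of the sites without H3K4me3 carried zygonema H3K9ac, and where it had none 1.35%. Late sites had almost none. In zygonema 2 of 876 (0.228%) and in early pachynema 9 (1.03%) met H3K9ac, against 14.5% of the 441 late H3K4me3-marked sites in early pachynema.

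**Figure D4:**
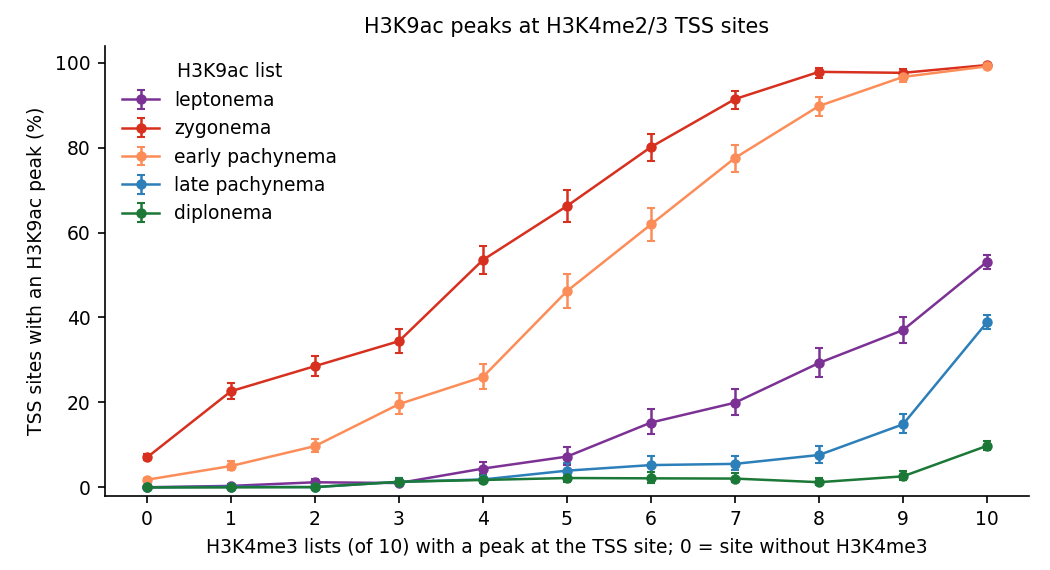
Share of H3K4me2/3 TSS sites with an H3K9ac peak (vertical axis, %) against the number of H3K4me3 lists, of 10, with a peak at the site (horizontal axis), for the 5 H3K9ac lists. Points at 0 are the 5543 sites without H3K4me3, and bars are exact binomial 95% intervals. In zygonema the share was 7.05% at 0 lists, 22.6% at 1 list, 66.2% at 5 lists and 99.4% at 10 lists.

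Among the 430 sites called at all 5 stages, the widest by mean peak width were at genes of varied function. The site at Bdh1, the mitochondrial 3-hydroxybutyrate dehydrogenase (chr16:31427683-31430354), was 2153 bp wide in leptonema and 1926 bp in zygonema, 1704 and 2476 bp in early and late pachynema, and 1609 bp in diplonema. It also had H3K9ac in zygonema and early pachynema, as did the site at the tight junction protein Cldn7 (chr11:69964900-69967187), with widths of 2195, 1843, 1722, 1967 and 413 bp in the order of the stages. Both were at least 1704 bp wide at each stage up to late pachynema, and Cldn7 was narrow in diplonema. The site shared by Dusp10, a phosphatase of MAP kinases, and 1700056E22Rik had widths of 2613, 1705, 1405, 2707 and 1326 bp. The Txnrd1 site was widest in diplonema, with 1063, 2095, 1682, 2063 and 2168 bp. Both had H3K9ac in zygonema.

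Other wide sites were much narrower at some stages. Id1, which inhibits basic helix-loop-helix factors, had 3031 bp in leptonema, 2205 bp in zygonema, 751 and 1987 bp in early and late pachynema and 916 bp in diplonema. Pcdh10 had 2739 and 2547 bp in leptonema and zygonema, 590 and 670 bp in pachynema and 2102 bp in diplonema. Nfatc4, the widest merged site of all (chr14:55822640-55827006), had 4317, 2134, 270, 941 and 571 bp. Nfatc4 alone of these 3 had H3K9ac, in zygonema. The Snrpn and Snurf site had 2056, 927, 1732, 1986 and 1542 bp and no H3K9ac. Gm47430, a noncoding RNA, was widest in late pachynema with 3778 bp, against 927 to 1588 bp elsewhere, and BC025920 had 1182 to 2060 bp. These 10 sites lay between 5384 bp (Txnrd1) and 229811 bp (Pcdh10) from the nearest H3K4me3 peak. The next sites with H3K9ac in 2 lists were at Set, a histone chaperone, at Mvd, an enzyme of cholesterol synthesis, and at 4930445N18Rik. The Set site was a secondary start 2368 bp from an H3K4me3 peak.

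The widest sites called at 1 stage only were at the following genes. Those in leptonema were at the semaphorin Sema6a (2883 bp), at the metalloprotease Adamts9 (2724 bp) and at the pseudogene Gm21321 (2689 bp), with CpG ratios of 0.58, 0.69 and 0.71. In zygonema they were at inner starts of Stat6, a transcription factor of cytokine signalling (1478 bp), and of Aff4, a scaffold of the super elongation complex (1431 bp), and at Gm9247 (1056 bp). Those of Stat6 and Aff4 had CpG ratios of 0.19 and 0.16, and Aff4 had H3K9ac in zygonema. In early pachynema the widest were narrower, at Gm49018 (989 bp), Lrrc57 (817 bp) and St6galnac6, a sialyltransferase (777 bp). In late pachynema they were at the neighbouring Gm36618 and Spn-ps (2820 bp), at Tmem232 (2275 bp) and at Lrrc74a (2084 bp), with ratios of 0.24, 0.24 and 0.32. In diplonema they were at Gpatch2 (1986 bp), Gm49579 (1785 bp) and Cdkn1a, the inhibitor of cyclin-dependent kinases p21 (1776 bp). The Gpatch2 and Cdkn1a sites were inner starts of genes with H3K4me3 at another TSS, and the Cdkn1a site (chr17:29097025-29098800) lay 1311 bp from an H3K4me3 peak. By the mean width of their called peaks, the widest sites at long noncoding RNA genes alone were those at Gm36618, 5330438D12Rik (2118 bp in late pachynema and 2663 bp in diplonema) and Gm34785 (2025 bp in leptonema only), whereas Gm47430 had a wider single peak.

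Genes of spermatid formation had late sites. Of 50 listed spermiogenesis genes, 9 had a site without H3K4me3 (18%, against 16.4% of all protein-coding genes) and 21 had H3K4me3 at a TSS. In 7 of the 9 the site was late, whereas of all 3419 protein-coding genes with a site 470 had a late one (13.7%). Odf1, of the outer dense fibres of the sperm tail, had 1726 bp in late pachynema only, Tnp2 1488 bp and Spaca4 1156 bp, likewise in late pachynema only. The Spaca4 site was shared with Fam83e. Gapdhs, the sperm form of a glycolytic enzyme, had 3 sites, of 1111, 955 and 155 bp, the second of them also called in diplonema. Gsg1 also had 3, all late. Akap3, of the fibrous sheath, had 644 bp in late pachynema only. Izumo1, needed for fusion of sperm and egg, had 323 bp in late pachynema and a separate 151 bp in diplonema. The tektins Tekt4 and Tekt5 were the exceptions and had a leptonema peak, of 538 and 511 bp. The CpG ratio of the late spermiogenesis sites ran from 0.041 at Akap3 to 0.38 at the site of Spaca4 and Fam83e, and 1 of them, at Izumo1, met H3K9ac. At the shared site the ratio was taken around a 5′ end on the plus strand, whereas Spaca4 lies on the minus strand.

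Genes of spermatogonia, the dividing precursors of these cells, had sites with a leptonema peak. Of 30 listed genes, 10 had a site without H3K4me3 (33.3%, exact 95% interval 17.3 to 52.8, against 16.4%), and 9 of the 10 had H3K4me3 at no TSS. Each of the 10 had a leptonema peak and none was late, where 78.0% of all sites without H3K4me3 had a leptonema peak and 13.7% of all protein-coding genes with a site had a late one. The site was early in 4 of the 10 genes (40%) and of both phases in 6 (60%). Of all protein-coding genes with a site, 63.8% had an early one and 27.5% had one of both phases. The 2 parts of the receptor for GDNF, the growth factor that maintains spermatogonial stem cells, were among them. Gfra1 had 2685 bp in leptonema, 1008 bp in zygonema and 248 bp in diplonema, and Ret had 1045 and 505 bp in leptonema and zygonema only. Zbtb16, a transcriptional repressor of the same stem cells, had 2535, 1275, 1375 and 415 bp from leptonema to late pachynema and none in diplonema, with H3K9ac in zygonema. Upp1 had 1588 and 465 bp in leptonema and zygonema, and Pax7 (734 bp) and Pou5f1 (537 bp) were called in leptonema only. In each of these 6 the leptonema peak was the widest. Utf1, a chromatin factor, differed, with 1304 bp in leptonema, 390 to 701 bp in the next 3 stages and 1842 bp in diplonema. The CpG ratios of the 10 sites ran from 0.33 at Pou5f1 and 0.36 at Sohlh1 over 0.47 at Thy1, 0.59 at Upp1, 0.68 at Zbtb16, 0.73 at Pax7, 0.76 at Gfra1 and 0.80 at Utf1 to 0.87 at Eomes and Ret, beside the median of 0.44 over all sites without H3K4me3.

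Most genes of meiotic prophase had H3K4me3. Of 46 autosomal genes of the list 42 had H3K4me3 at a TSS and 3 had a site without it (6.52%, 1.37 to 17.9, an interval that holds the 16.4% of all protein-coding genes). Rec8, the meiotic cohesin subunit, had 1196, 1068, 213 and 283 bp from leptonema to late pachynema and H3K9ac in zygonema. Sohlh1, a factor of late spermatogonia that is on both lists, had 748, 744 and 288 bp up to early pachynema and 151 bp in diplonema. Mei1 had an inner start of 791 bp in diplonema only.

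Markers of somatic cells of the testis were checked because whole testis was the source. Of the marker genes 4 of 19 for Sertoli cells, 3 of 14 for Leydig cells and 8 of 27 for peritubular, vascular and blood cells (29.6%, 13.8 to 50.2) had a site without H3K4me3, against 16.4% of all protein-coding genes. The last list had H3K4me3 at a TSS in 4 of 27. In 7 of its 8 genes the site was early and in none late, beside 63.8% and 13.7% of all protein-coding genes with a site. Myh11, the smooth muscle myosin, had 1654 bp in leptonema and 447 bp in zygonema. Kdr, a receptor for vascular endothelial growth factor, had 1009 and 324 bp, and Esam 1025 and 417 bp, in the same stages. Vwf (1031 bp) and Tcf21 (314 bp) were called in leptonema only, Tek (167 bp) in zygonema only, and Des had 829 bp in leptonema with 761 and 976 bp in late pachynema and diplonema. Of the 4 Sertoli cell markers 3 had an early site, 1 had one of both phases and none a late one. Clu had 745 bp in leptonema and 194 bp in zygonema and Cldn11 403 bp in leptonema only. Espn had 927 and 485 bp in leptonema and zygonema and 949 bp in diplonema. Of the Leydig cell markers, Lhcgr, the receptor for luteinising hormone, had 201 bp in leptonema only, and Scarb1, a lipoprotein receptor, had 4 sites. The Scarb1 site at the gene start had 1267 and 783 bp in leptonema and zygonema and 522 and 460 bp in late pachynema and diplonema. Another had 920 bp in leptonema and 155 and 726 bp in late pachynema and diplonema. The gates on DNA content, SCP3 and, for leptonema, STRA8 were set to select meiotic nuclei, and the paper reports that the sorted populations were not entirely pure. By its counts leptonema was the purest of them and zygonema the least pure. The part of other cell types in the leptonema calls was not tested.

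Several gene families with tissue-specific roles had higher shares of genes with a site. Among 130 potassium, sodium and calcium channel genes 55 had one (42.3%, 33.7 to 51.3), among 202 developmental transcription factors 56 (27.7%, 21.7 to 34.4) and among 362 solute carriers 90 (24.9%, 20.5 to 29.6), against 16.4% of all protein-coding genes. H3K4me3 at a TSS was found in 46.9% of the channel genes, 70.3% of the transcription factors and 53.6% of the solute carriers. For all protein-coding genes this share was 55.2%. Kcna1, a potassium channel of neurons, had 3535 bp in leptonema and 1502 bp in zygonema. Lhx6 had 2908 and 2629 bp, Irx3 2784 and 1316 bp and Slc18a3, the vesicular transporter of acetylcholine, 2397 and 1196 bp in the same 2 stages, with no peak later. Tfap2e, a transcription factor, was wider in zygonema (2060 bp) than in leptonema (1816 bp). The zinc transporter Slc30a3 had 3011 and 739 bp early and 2487 and 775 bp late. None of these 6 sites met H3K9ac. Cytokines, chemokines and their receptors had a site in 31 of 177 genes (17.5%, 12.2 to 23.9), such as Tnfsf13b, a survival factor of B cells (1804 bp in leptonema only).

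The remaining families had shares below the 16.4% of all protein-coding genes, but the intervals of keratins and proteasome genes held that value. Keratins had a site in 12 of 106 genes (11.3%, 5.99 to 18.9), among them Krt87 with 1131 bp in leptonema only, and odorant and pheromone receptors in 20 of 1428 (1.40%, 0.858 to 2.15), where Olfr545 had 948 and 902 bp in leptonema and zygonema and Vmn1r181 551 and 1082 bp in late pachynema and diplonema. Of the ribosomal protein genes 71 of 78 had H3K4me3 at a TSS and 3 had a site without it (3.85%, 0.80 to 10.8). These were inner starts of Rpl14 and Rpl11 in late pachynema and the start of Rpl3l, a form found in muscle, at all 5 stages with 156 to 552 bp. Of 38 proteasome genes 35 had H3K4me3 and 4 had a site without it (10.5%, 2.94 to 24.8). Among the 4 were Psmb8 (1218 bp in leptonema only) and Psmb9 (737 bp in leptonema and 373 bp in late pachynema), subunits of the immunoproteasome that is induced by interferon.

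**Figure D5:**
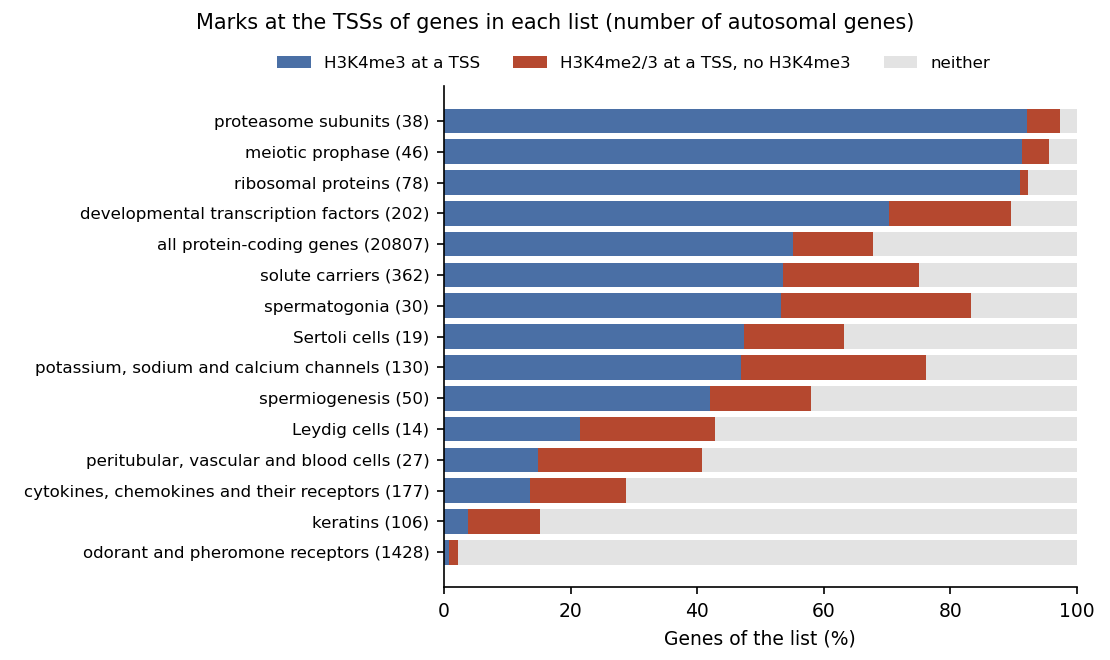
Share of the autosomal genes in each list (horizontal axis, %) with H3K4me3 at a TSS, with H3K4me2/3 at a TSS but H3K4me3 at none, or with neither. The number of genes is in brackets. The second class held 9 of 30 spermatogonial genes, 2 of 46 meiotic prophase genes and 2606 of all 20807 protein-coding genes.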

How the data were processed

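ChIP-Seq peak positions were analysed for 20 of the 51 samples, 10 H3K4me3, 5 H3K4me2/3 and 5 H3K9ac lists, and the other 31 samples were not analysed here. The authors aligned reads to mm10 with BWA (0.7.12) and called broad H3K4me3 peaks with MACS2 (2.1.2, q of 0.1) against stage-matched input. The deposited lists give start and end of each peak on chromosomes 1 to 19, without scores or counts. For H3K9ac the control is not given in the sources used here, and the antibody field of its labels names H3K4me3 while titles and methods name H3K9ac, which was followed.

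Peaks were merged where they overlapped or adjoined, and overlaps of 1 bp or more were counted with Python 3.11.15 and numpy 2.4.6, and checked with bedtools 2.31.1. TSSs were transcript 5′ ends of GENCODE M21 (125891 distinct windows), while the study's methods name another release. Intervals and the permutation test came from scipy 1.17.1. The classification was tested on simulated lists. Genes are named by rules on width, stage, H3K9ac and gene lists (symbols or name patterns). The rule, members and lists were chosen with earlier results of these data known. Alternatives changed the TSS window, transcripts, overlap, merging, list length and libraries.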

Additional observations from a re-analysis of the deposited data

How the results depend on the processing

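The number of sites without H3K4me3 (5543) and the shares given for them followed the choices made, while the lower H3K9ac share at these sites held in all of them. The number was 8243 with H3K4me3 of experiment 1 only, a setting added after seeing the data, 5882 with experiment 2 only, 3146 with protein-coding transcripts only, 2039 with peaks above the median width of their list and 3233 with sites called at 2 or more stages. It ran from 4106 (without leptonema H3K4me2/3) to 6450 (without leptonema H3K4me3 of experiment 2) when 1 library was left out. The share of TSS sites without H3K4me3 was 29.6% and 33.0% with windows of 250 and 1000 bp, 22.9% with protein-coding transcripts, 27.6% with the most upstream 5′ ends, 30.3% with no H3K4me3 within 1000 bp, 46.2% and 33.0% with H3K4me3 of experiment 1 only and of experiment 2 only, 15.1% with peaks above the median width, 23.6% with lists of equal length, 21.3% with 2 or more stages, and 25.3% to 36.1% without 1 library. The share called at 1 stage was 39.3% and 44.8% with the 2 windows, 36.4% with protein-coding transcripts, 39.8% with the most upstream 5′ ends, 29.9% with H3K4me3 of experiment 1 only, 39.4% with peaks within 500 bp merged, 67.9% with peaks above the median width, 47.1% with lists of equal length, and 37.3% to 59.9% without 1 library. The share with H3K9ac in any list was 11.8% and 11.3% with H3K4me3 of experiment 1 only and of experiment 2 only, 13.7% with peaks above the median width, 10.7% with lists of equal length, 12.3% with 2 or more stages, and 1.84% (without zygonema H3K9ac) to 10.7% (without zygonema H3K4me3 of experiment 1) without 1 library. The mean H3K9ac difference ran from -37.1 to -29.9 percentage points over 12 settings and from -37.1 to -23.0 without 1 library, with no change of sign. The counts of leptonema-only and late sites under these settings were added after seeing the data.

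No paired analysis was possible because each H3K4me2/3 and H3K9ac stage had 1 library, so that the groups tested share fewer than 2 replicate numbers. Only H3K4me3 had 2 experiments, and its lists entered as presence of a peak. Lists without scores leave the depth unknown, and H3K4me3 under the limit of a list was not tested. Stage differences rest on 1 library a stage and move with list length, and in sorted nuclei fewer nuclei with a mark and less mark per nucleus cannot be told apart.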
